A study of Mus musculus with 46 samples.

Results

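Homozygous and heterozygous XY embryos carrying the 3bp-del allele of Enh13 were compared in RNA sequencing of whole gonad pairs at E12.5. The comparison takes 8 of the 46 libraries of the study, chosen by their labelled sex and genotype: 5 XY Enh13-3bp-del-hom and 3 XY Enh13-3bp-del-het. By its name the allele lacks 3 bp of Enh13, and the labels do not say which bases these are. All 8 libraries carry at least 1 copy of the allele, so the comparison is between 2 copies and 1 copy in a male genome. Set beside them are 3 XY wild-type libraries (WT), XY carriers of a second allele, Enh13-1bp-ins (5 homozygotes and 3 heterozygotes), and XX carriers of the 3bp-del allele (5 homozygotes and 3 heterozygotes), all at E12.5. A ratio given below and the fit over 12 groups also use the remaining groups, likewise at E12.5. These are XX wild type (3 libraries), XX 1bp-ins carriers (5 homozygotes and 3 heterozygotes) and homozygotes labelled Enh13-3bp-12bp-del (3 XY and 5 XX). The labels give no strain, no promoter or driver and no number of founder lines. They also do not say whether replicates came from separate embryos, so p-values measure the spread between these samples.

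Sox9 encodes the transcription factor that commits supporting cells of the mouse gonad to the Sertoli fate, and Enh13 is a distal enhancer of Sox9 that carries binding sites for the testis-determining factor SRY. In an XY gonad SRY starts Sox9 transcription, SOX9 then maintains its own expression, and the resulting Sertoli cells secrete AMH and Desert hedgehog, form cords and direct the other cells of the testis. In an XX gonad Sox9 stays low, and WNT4 and FOXL2 mark the pregranulosa cells of the ovary.

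Estimated counts per library ran from 31117000 to 46150000, and every homozygote library was deeper than every heterozygote library. Xist reached at most 0.102 CPM (counts per library scaled to a common total), and 4 Y-linked genes summed to 149.7 to 204.4 CPM, so all 8 libraries matched their male label. The gonadal somatic genes Nr5a1, Gata4 and Wt1 were present in all of them, at 398 to 445, 482 to 540.5 and 304 to 389.8 CPM in the heterozygotes and 361 to 487, 452 to 585 and 278 to 356 CPM in the homozygotes. Homozygote Rep1 stood apart: on the first principal component, which held 38.1% of the variance, it lay at 75.0 and the other 7 libraries between -18.8 and -3.42.

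Marker genes of tissues other than the gonad were high in that library. Afp, a secreted protein of yolk sac endoderm and fetal liver, was at 2226 CPM there and at most 5.74 CPM in the other 7. Ttr, which encodes the carrier transthyretin, was at 381 CPM against at most 0.685 CPM. Over a list of 14 visceral endoderm genes, drawn up after its values were seen, the summed level was 37.4, 28.1 and 36.4 CPM in the heterozygotes and 4729.6, 26.0, 26.9, 30.5 and 25.4 CPM in the homozygotes. The 13 genes of an epithelial barrier list (junction and envelope genes such as Cldn4 and Ppl), drawn up in the same way, summed to 18.3, 20.3 and 23.0 CPM and 862, 24.2, 22.9, 22.1 and 20.3 CPM. All 12 visceral endoderm and all 13 epithelial genes tested had their highest level in homozygote Rep1. Given how both lists were drawn up, this count is a description only. Heterozygote Rep1 in turn held the adrenal list of 10 genes at a sum of 119 CPM against 17.5 to 37.4 CPM in the other 7, with Dbh, a catecholamine enzyme, at 31.4 CPM. The mesonephros list of 10 genes summed to 38.0, 33.8 and 39.1 CPM in the heterozygotes and 104, 47.1, 47.0, 45.2 and 37.0 CPM in the homozygotes. Results below are therefore given with and without homozygote Rep1 wherever that changes the call.

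**Figure D1:**
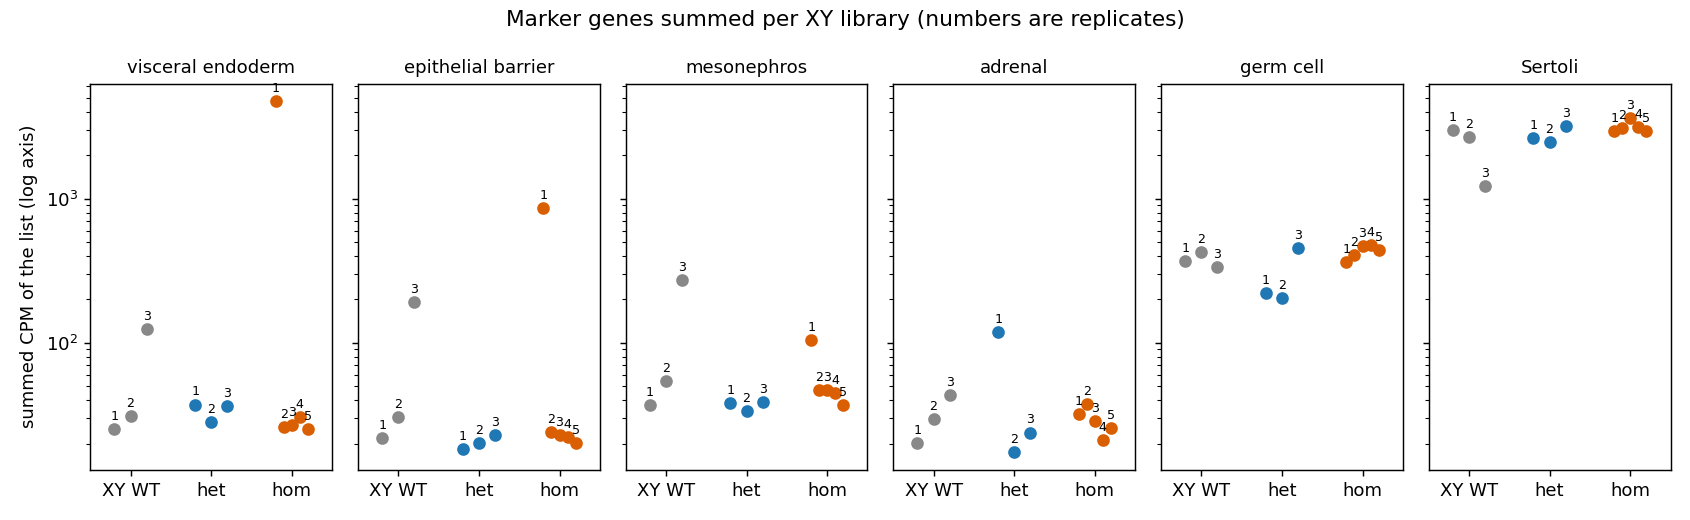
Summed CPM (log axis) of 6 marker lists in each XY library, with the replicate number as the symbol, for wild type, 3bp-del heterozygotes (het) and 3bp-del homozygotes (hom). Homozygote Rep1 lies far above the other 7 carrier libraries for visceral endoderm and epithelial barrier genes, heterozygote Rep1 for adrenal genes, and the Sertoli sums of the 2 carrier groups overlap.

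Across 15665 genes tested, none passed an adjusted p of 0.05 between homozygotes and heterozygotes (0%, edgeR's quasi-likelihood test with Benjamini-Hochberg adjustment), although 2981 (19.0%) had an unadjusted p under 0.05. The smallest adjusted p was 0.0506, shared by 4 genes that were all lower in homozygotes, and 443 genes lay under 0.1. In 948 genes (6.05%) every homozygote library was above every heterozygote library, and in 1294 (8.26%) every one was below. Other fits of the same contrast passed more genes: DESeq2 passed 495 higher (2.28%) and 668 lower (3.08%), 1 fit that took its spread from all 12 groups of the study passed 850 (4.99%) and 619 (3.63%), and limma on log2(TPM + 1) passed 3 (0.0192%) and 13 (0.0830%).

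Leaving out 1 library also changed the count. Without homozygote Rep1, edgeR passed 90 genes higher in homozygotes (0.574%) and 139 lower (0.886%), and without heterozygote Rep3 it passed 107 higher (0.665%) and 50 lower (0.311%). The 2 sets shared 46 genes in the same direction. Of the 229 genes passed without homozygote Rep1, 200 were also passed by DESeq2 over all 8 libraries, and 187 did not overlap between the groups when homozygote Rep1 was put back. Over all genes, DESeq2 passed 2.28% as higher and 3.08% as lower, and 6.05% were higher and 8.26% lower without overlap. The 229 genes were selected on libraries that both counts use again, so the 200 and the 187 are a description only. Leaving out heterozygote Rep2 passed 1 gene, and leaving out any of the other 5 libraries passed none.

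Sox9 itself was within or above the range of XY wild type with either dose of the allele. Its level was 210.4, 159.8 and 164 CPM in the 3 heterozygote libraries and 207, 199, 174, 219 and 226 CPM in the 5 homozygote libraries, against 159, 163 and 84.0 CPM in the 3 XY wild-type libraries. Heterozygote Rep1 lay inside the homozygote range, so the groups overlapped. The log2 fold change of homozygotes over heterozygotes was 0.21 ± 0.12 (adjusted p = 0.364, edgeR), which did not pass, and it was 0.21 ± 0.12 without homozygote Rep1. Wild-type Rep3 was the lowest of the 11 XY libraries for Sox9. That library also held Amh at 214 CPM, and its epithelial barrier and mesonephros sums of 191 and 273 CPM were the highest of the wild types. The part of those tissues in its Sox9 level was not tested.

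The transcript next to Sox9 differed more than Sox9. BC006965 is a long noncoding RNA on chromosome 11 (GRCm38, 112663927 to 112781976, minus strand), and it is annotated to begin 248 bp away from Sox9 (112782224 to 112787760, plus strand). It was at 5.50, 3.89 and 4.21 CPM in the 3 heterozygote libraries and 5.52, 5.92, 6.40, 7.67 and 8.13 CPM in the 5 homozygote libraries. Every homozygote library was above every heterozygote library, the closest pair being homozygote Rep1 and heterozygote Rep1. Its log2 fold change was 0.57 ± 0.18, with an adjusted p of 0.145 by edgeR and 0.0445 by DESeq2. In XY wild type it was at 2.53, 3.00 and 1.07 CPM, below all 8 carrier libraries. The annotated spans of both genes lie on opposite strands and do not overlap. The annotation and strand handling used in the counting are not known, so reads near their starts may not be fully told apart.

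Of 8 tested genes in a list of 10 around Sox9, none passed in edgeR. DESeq2 passed BC006965 and Cog1, both higher, beside 2.28% of all genes passed as higher. In edgeR 5 estimates were positive and 3 negative, with a median log2 fold change of 0.10 against 0.01 over all genes tested. With the trends with GC content and length described below removed, the median of the list was -0.01. Cog1, a Golgi tethering subunit further along the chromosome, was the other member with no overlap between groups (6.05% of all genes were higher without overlap). It was at 33.8, 35.6 and 35.1 CPM in the 3 heterozygote libraries and 42.5, 41.7, 40.6, 38.6 and 39.5 CPM in the 5 homozygote libraries, a log2 fold change of 0.22 ± 0.06 (adjusted p = 0.118, edgeR). With both trends removed the estimate for Cog1 was 0.15 ± 0.06. Cdc42ep4, an effector of the small GTPase CDC42, had a log2 fold change of 0.13 ± 0.08, and Kcnj2, a potassium channel gene on the other side of Sox9, -0.27 ± 0.25.

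Sertoli genes showed no shared direction between the 2 doses. Of 25 tested members of a Sertoli list of 26 genes, none passed in edgeR. DESeq2 passed 1 higher, Dhh, and 2 lower, Erbb4 and Nedd9, beside 2.28% and 3.08% of all genes. In edgeR 11 estimates were positive and 14 negative, and the median log2 fold change was -0.04. The summed level of the list was 2628, 2463 and 3197 CPM in the heterozygotes and 2933, 3083, 3606, 3115 and 2928 CPM in the homozygotes. The ranges overlapped, with heterozygote Rep3 above 4 of the 5 homozygotes. In whole gonads fewer cells of a type and less RNA per cell cannot be told apart.

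Amh, the hormone that regresses the Müllerian ducts, was at 248, 222 and 720.3 CPM in the 3 heterozygote libraries and 805, 561, 1060.1, 618 and 406 CPM in the 5 homozygote libraries. Heterozygote Rep1 and Rep2 were below all homozygotes, while Rep3 was above 3 of them, and the log2 fold change of 0.80 ± 0.48 did not pass (adjusted p = 0.403, edgeR). The SE of that estimate is the largest among the Sertoli genes named here.

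Dhh, the hedgehog ligand that Sertoli cells send to Leydig cell precursors, was at 187, 176 and 218 CPM in the 3 heterozygote libraries and 213, 265, 257, 249.7 and 241 CPM in the 5 homozygote libraries. Homozygote Rep1 lay below heterozygote Rep3, and the other 4 homozygotes were above all heterozygotes. The log2 fold change was 0.34 ± 0.09 (adjusted p = 0.104, edgeR), and without homozygote Rep1 it was 0.39 ± 0.08 and passed narrowly (adjusted p = 0.0496). It was the only one of the 25 genes to pass in that fit, which passed 0.574% of all genes as higher.

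Of 7 genes of the Hedgehog pathway, through which Dhh acts, none passed in either fit, and the receptor Ptch1 had a log2 fold change of -0.17 ± 0.13 and the transcription factor Gli1 0.21 ± 0.11. Among other Sertoli regulators, Sox8, a close relative that acts beside Sox9, differed by -0.03 ± 0.09 and Sox10 by 0.35 ± 0.11 on the log2 scale. Fgf9, the growth factor that sustains Sox9 expression, differed by -0.15 ± 0.19, and Ptgds, the prostaglandin D synthase that does the same, by 0.38 ± 0.39. Nr5a1, the nuclear receptor that cooperates with SOX9 at its enhancers, differed by 0.05 ± 0.09. None of these 5 passed in edgeR, with adjusted p from 0.151 for Sox10 to 0.891 for Sox8.

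Of the 25 tested Sertoli genes, 2 were lower in every homozygote than in any heterozygote, beside 8.26% of all genes. These were Erbb4, a neuregulin receptor, and Nedd9, an adhesion scaffold. Erbb4 was at 3.92, 5.28 and 4.57 CPM in the 3 heterozygote libraries and 2.69, 2.92, 3.27, 2.67 and 2.94 CPM in the 5 homozygote libraries, without overlap (log2 fold change -0.66 ± 0.15, adjusted p = 0.0874, edgeR). Nedd9 differed by -0.24 ± 0.07 (adjusted p = 0.114), also without overlap. With the GC and length trends removed Erbb4 was at -0.35 ± 0.17 (adjusted p = 0.460).

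**Figure D2:**
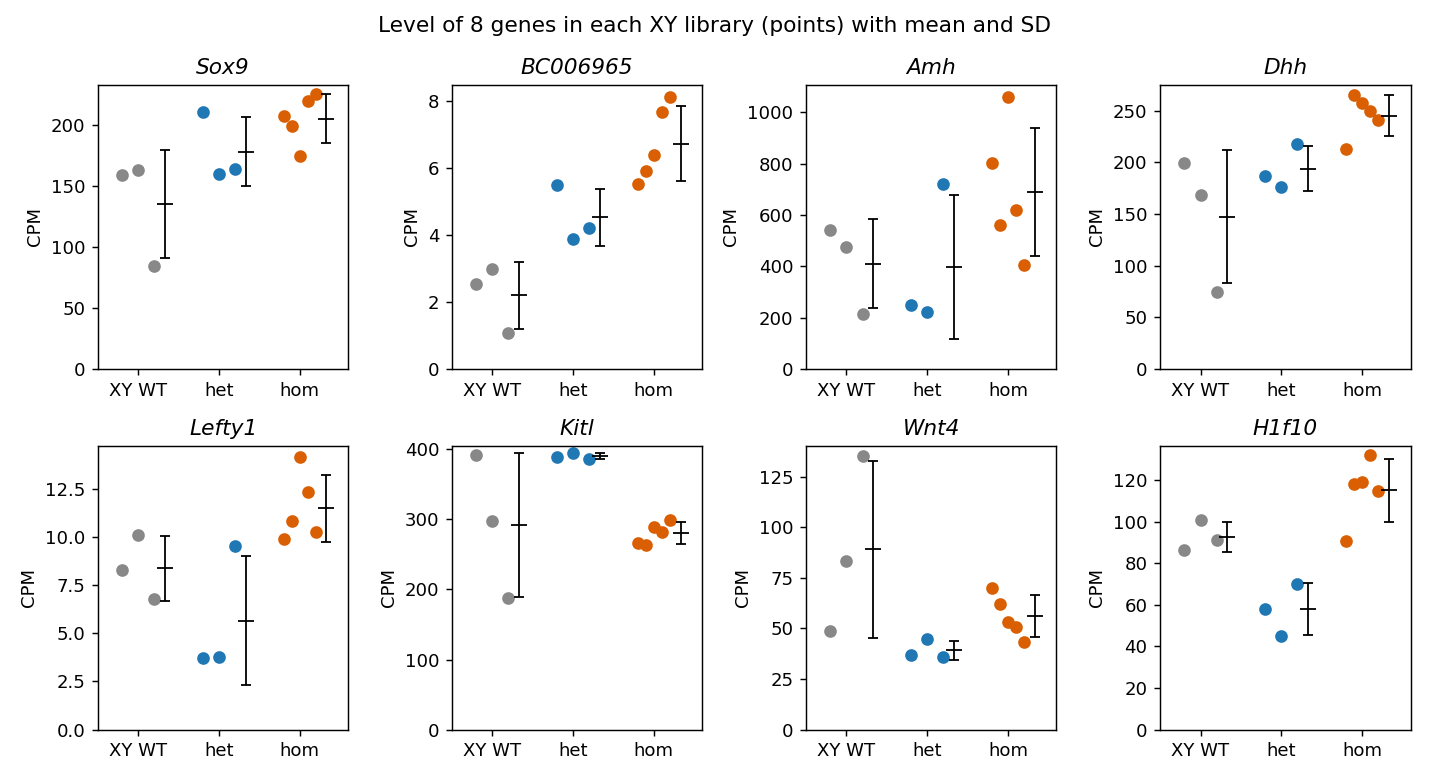
CPM of 8 genes in each XY library (points), with the mean (line) and SD (bar) of wild type (n = 3), 3bp-del heterozygotes (het, n = 3) and 3bp-del homozygotes (hom, n = 5). Sox9 and Amh overlap between the carrier groups, Kitl lies between 263 and 299 CPM in homozygotes and between 386 and 394 CPM in heterozygotes, and BC006965 and H1f10 are higher in every homozygote than in any heterozygote.

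Kitl, the ligand of the receptor KIT on germ cells, was the gene of the pregranulosa list that differed most clearly. Its level was 389, 394 and 386 CPM in the 3 heterozygote libraries and 266, 263, 289.5, 282 and 299 CPM in the 5 homozygote libraries, so all 5 homozygotes were below the lowest heterozygote. The log2 fold change was -0.48 ± 0.06 with an adjusted p of 0.0518 (edgeR), just short of passing, and it passed without homozygote Rep1 (-0.45 ± 0.07, adjusted p = 0.0348). XY wild type held 392, 297 and 187 CPM, from below the homozygotes to the level of the heterozygotes. With the GC and length trends removed the estimate was -0.23 ± 0.06 (adjusted p = 0.269).

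None of the 19 genes of the pregranulosa list passed in edgeR over all 8 libraries. Without homozygote Rep1 Kitl was the 1 that did, beside 0.886% of all genes passed as lower. Over all 8 libraries DESeq2 passed Kitl as lower and Wnt4 as higher, beside 3.08% and 2.28% of all genes. The fit with 12 groups passed Kitl as lower, beside 3.63% of all genes. There were 11 positive and 8 negative estimates, with a median log2 fold change of 0.09. Wnt4, the ligand that opposes the Sertoli fate, was at 37.1, 44.6 and 35.7 CPM in the 3 heterozygote libraries and 70.0, 62.1, 53.2, 50.9 and 43.3 CPM in the 5 homozygote libraries. Only homozygote Rep5 lay within the heterozygote range, and the log2 fold change was 0.52 ± 0.15 (adjusted p = 0.132, edgeR). Foxl2, the transcription factor that defines granulosa cells, was near its floor in both groups, at 0.804 to 1.34 and 0.773 to 1.37 CPM. Fzd1, a Wnt receptor, differed by -0.23 ± 0.14.

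All 13 genes of the general germ cell list had a positive estimate, with a median log2 fold change of 0.64 against 0.01 over all genes, and none of them passed in edgeR. The list summed to 221, 204 and 455 CPM in the heterozygotes and 363, 404, 472, 477 and 440.2 CPM in the homozygotes. Heterozygote Rep1 and Rep2 were below all homozygotes, and heterozygote Rep3 was inside their range. The XY wild-type sums were 370.1, 424 and 337 CPM.

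Utf1, a chromatin factor of pluripotent and early germ cells, was at 35.5, 39.2 and 66.9 CPM in the 3 heterozygote libraries and 61.1, 84.4, 90.2, 95.05 and 82.6 CPM in the 5 homozygote libraries (log2 fold change 0.81 ± 0.22, adjusted p = 0.121, edgeR). Pou5f1, the pluripotency factor OCT4, was at 36.3, 24.7 and 70.5 CPM in the 3 heterozygote libraries and 51.0, 67.0, 79.2, 86.8 and 75.2 CPM in the 5 homozygote libraries (0.71 ± 0.33, adjusted p = 0.292). Both overlapped through heterozygote Rep3. Tfap2c, a germ cell specifier, was the 1 member of the 13 with no overlap (0.80 ± 0.23, adjusted p = 0.127), beside 6.05% of all genes higher without overlap. Kit, the receptor that Kitl binds, differed by 0.12 ± 0.15.

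Nodal signalling genes, which XY germ cells switch on at this stage, also had positive estimates that did not pass. Lefty1, a Nodal inhibitor and target, was at 3.70, 3.76 and 9.53 CPM in the 3 heterozygote libraries and 9.92, 10.8, 14.1, 12.3 and 10.3 CPM in the 5 homozygote libraries, with every homozygote above every heterozygote (log2 fold change 1.02 ± 0.32, adjusted p = 0.144, edgeR). Lefty2, its paralogue, was at 19.4, 15.1 and 45.9 CPM in the 3 heterozygote libraries and 40.3, 38.3, 41.2, 50.3 and 45.7 CPM in the 5 homozygote libraries, with heterozygote Rep3 inside the homozygote range. Nodal itself had a log2 fold change of 0.68 ± 0.29. DESeq2 passed 4 of the 13 general germ genes and Lefty1 as higher, where it passed 2.28% of all genes as higher. The fit with 12 groups passed 1 of the 13 and none of the 3 Nodal signalling genes, where it passed 4.99% of all genes as higher. The 9 tested genes of female meiosis had 7 positive and 2 negative estimates, and none passed in edgeR.

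Of 15 endothelial genes tested, 3 estimates were positive and 12 negative, with a median log2 fold change of -0.14 (-0.05 with the length trend removed and -0.11 with GC and length removed), and none passed in edgeR. Kdr, the main VEGF receptor, was at 189, 157 and 173 CPM in the 3 heterozygote libraries and 129.9, 146, 152, 116 and 108 CPM in the 5 homozygote libraries, without overlap (log2 fold change -0.41 ± 0.11, adjusted p = 0.117 in edgeR and 0.0247 in DESeq2). Cdh5, the junctional cadherin of the same cells, differed by -0.14 ± 0.13 and overlapped.

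Of the 12 stromal genes listed, 7 had a positive and 5 a negative estimate, with a median of 0.02. In edgeR over all 8 libraries 0 passed, with 3 at an unadjusted p under 0.05 (19.0% of all genes). DESeq2 passed 1 as higher (2.28% of all genes), and edgeR without homozygote Rep1 passed 1 as higher (0.574% of all genes). Col1a1, a fibrillar collagen, was at 3987 CPM in homozygote Rep1 against 627 to 924 CPM in the heterozygotes, and its estimate went from 0.78 ± 0.80 to -0.22 ± 0.25 without that library.

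Immediate early genes respond fast to stress and handling. Of the 10 tested, 2, Jun and Ier2, were higher in every homozygote than in any heterozygote, beside 6.05% of all genes. Jun was at 79.5, 63.5 and 76.3 CPM in the 3 heterozygote libraries and 112, 87.1, 90.4, 95.4 and 98.6 CPM in the 5 homozygote libraries (log2 fold change 0.41 ± 0.10, adjusted p = 0.103, edgeR). Ier2 differed by 0.48 ± 0.15 (adjusted p = 0.135). Fos, their partner, was at 45.7 CPM in homozygote Rep1 and at most 0.793 CPM in the other 7. Of the 10 immediate early genes tested, 9 estimates were positive and none passed in edgeR. DESeq2 passed Jun and Ier2, beside 2.28% of all genes passed as higher.

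In the basement membrane list Nid1, which links laminin to collagen IV, was at 469.6, 481 and 501 CPM in the 3 heterozygote libraries and 347, 419, 434, 338 and 338 CPM in the 5 homozygote libraries, without overlap (log2 fold change -0.37 ± 0.10, adjusted p = 0.104 in edgeR and 0.0102 in DESeq2). The other 14 tested members of that list overlapped, where 8.26% of all genes were lower without overlap. DESeq2 passed Nid1 alone of the list, beside 3.08% of all genes passed as lower. The collagen IV chain Col4a1 differed by 0.10 ± 0.30. Cell cycle genes had a median of 0.04 over 17 genes and no call, and Top2a, a mitotic topoisomerase, at -0.15 ± 0.07. Cholesterol synthesis genes had a median of 0.06 over 17 genes, again with no call.

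Of 4 Y-linked genes tested, none passed in edgeR, and 3 were lower in every homozygote than in any heterozygote (8.26% of all genes were). DESeq2 passed those 3, beside 3.08% of all genes passed as lower. Kdm5d, a histone demethylase, was at 51.8, 50.9 and 46.7 CPM in the 3 heterozygote libraries and 38.3, 40.1, 40.7, 39.9 and 39.5 CPM in the 5 homozygote libraries (log2 fold change -0.33 ± 0.06, adjusted p = 0.0680, edgeR). Uty, a Y-linked homologue of the demethylase gene Kdm6a, differed by -0.39 ± 0.08 and the RNA helicase gene Ddx3y by -0.38 ± 0.09, both without overlap, while Eif2s3y, a translation initiation subunit, differed by 0.17 ± 0.14. With the GC and length trends removed the 3 estimates were -0.17, -0.14 and -0.12, and Eif2s3y was at 0.30, which took the median of the 4 from -0.35 to -0.13. The median GC content of the 4 transcripts was 36.2%, against 49.9% over all genes tested.

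Fold changes followed transcript length and, more closely, GC content. Longer transcripts were lower in homozygotes: across 15383 genes Spearman's rho of the log2 fold change with relative length (counts divided by TPM) was -0.29, given as a description since genes are not replicates. When genes were split into 10 equal bins, the bin with the shortest had a median log2 fold change of 0.08 and that with the longest -0.14. With GC content rho was 0.49, from a median of -0.16 in the bin with the lowest GC to 0.25 in the bin with the highest. Every homozygote was below every heterozygote in 26.8% of the genes with the lowest GC and in 0.0656% of those with the highest. Without heterozygote Rep3 the rho with length was -0.18. Length and GC were themselves weakly related (rho -0.17). Removing the length trend left the relation with GC at 0.47, and removing the GC trend left that with length at -0.27.

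**Figure D3:**
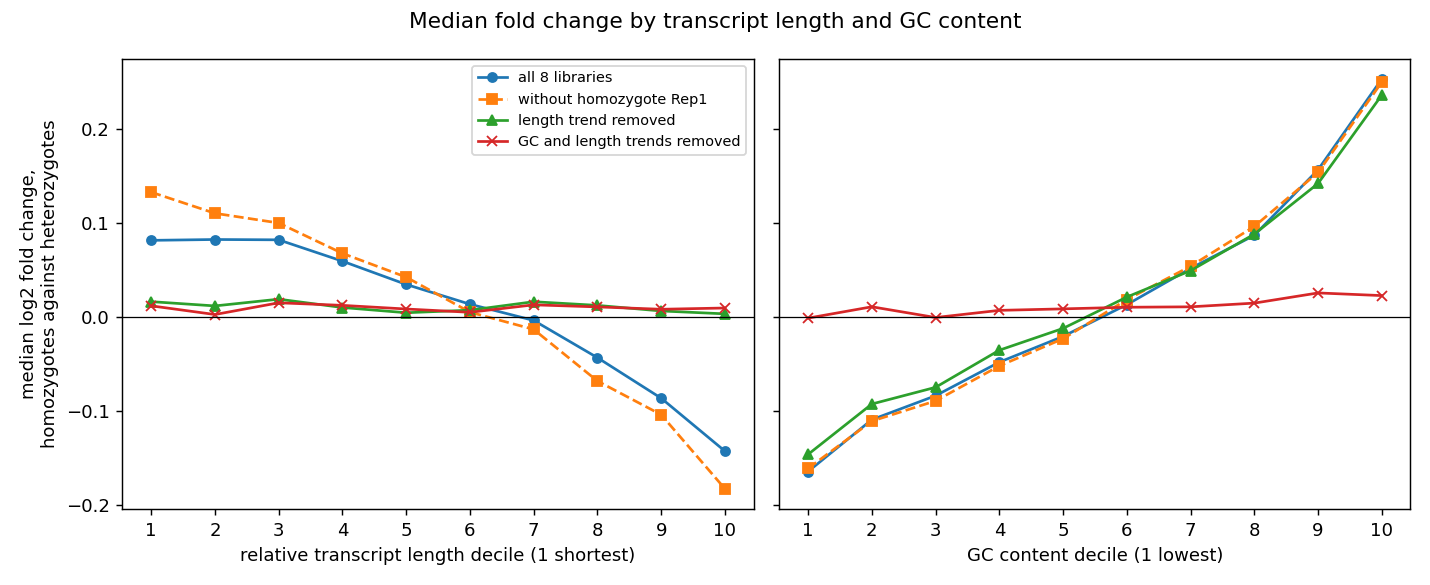
Median log2 fold change of homozygotes against heterozygotes in 10 equal bins of genes by relative transcript length (left) and by GC content of the transcript (right). Curves show all 8 libraries, the fit without homozygote Rep1, and all 8 libraries with the length trend or both trends removed. Over all 8 libraries the medians run from 0.08 to -0.14 with length and from -0.16 to 0.25 with GC content, and lie near 0 after both trends are removed.

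Per library, the relation with GC, examined after the values were seen, separated the groups and the one with length did not. Each library's deviation from the mean of the 8 had a rho with length of 0.29, -0.06 and 0.39 in the heterozygotes and of 0.25, -0.26, -0.0011, -0.55 and -0.26 in the homozygotes. Heterozygote Rep2 and homozygote Rep1 lay on the other side of 0 from most of their groups. The slope on log10 length was 0.14 ± 0.16 in heterozygotes (SD, n = 3) and -0.08 ± 0.22 in homozygotes (SD, n = 5), with an exact 2-sided permutation p of 0.214. The rho with GC was -0.26, -0.44 and -0.20 in the heterozygotes and 0.13, 0.41, 0.40, 0.15 and 0.02 in the homozygotes. The slope per 10 percentage points of GC was -0.13 ± 0.08 (SD, n = 3) and 0.08 ± 0.05 (SD, n = 5), with an exact 2-sided permutation p of 0.0357, the smallest that 56 splits of 3 against 5 allow. Heterozygote and homozygote libraries also differed in depth without overlap, so depth and genotype cannot be told apart here.

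**Figure D4:**
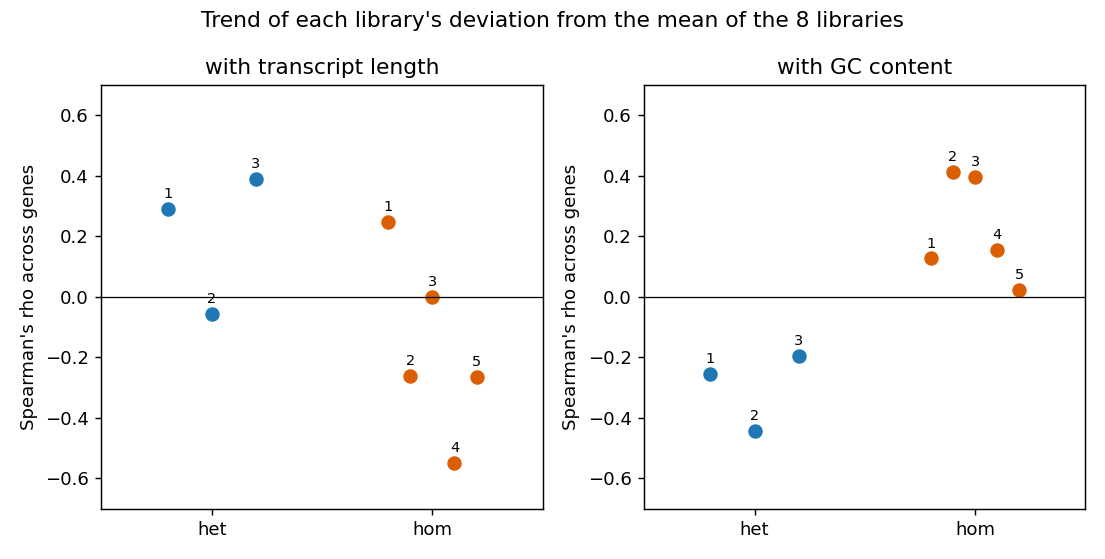
Spearman's rho across genes between each library's deviation from the mean of the 8 libraries and transcript length (left) or GC content (right), for heterozygotes (het) and homozygotes (hom). The groups overlap for length and do not for GC content, where heterozygotes lie between -0.44 and -0.20 and homozygotes between 0.02 and 0.41.

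Removing these trends by gene-wise offsets changed which genes stood out. With the length trend removed, 1 gene passed over the 8 libraries (lower, 0.00638%, of 2843 or 18.1% with an unadjusted p under 0.05), the processed pseudogene Rps12-ps3 (adjusted p = 0.0353, edgeR). With GC removed, or GC and length together, edgeR passed none, against 1843 and 1815 genes with an unadjusted p under 0.05 (11.8% and 11.6%), and 16 genes rather than 443 lay under an adjusted p of 0.1. DESeq2 and limma were not run with offsets.

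The genes that passed without homozygote Rep1 carried the same trends. The 90 higher ones had a median transcript length of 1753.5 bp and a median GC content of 58.6%, the 139 lower ones 6022 bp and 41.1%, against 3297 bp and 49.9% over all genes tested. With the length trend removed from the same 7 libraries edgeR passed 5 higher (0.0319%) and 3 lower (0.0191%), which kept 5 of the 90 and 2 of the 139, and with both trends removed 1 remained (0.00638%), the pseudogene Rps27a-ps3. Without heterozygote Rep3 the count was less affected, with 78 higher (0.485%) and 8 lower (0.0497%) after both trends were removed.

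The 21 genes named from here to the mitochondrial transcripts were chosen after their values were seen, so how many of them a fit passed is a description only. Over all 8 libraries and with no trend removed, edgeR passed 0 of the 21, DESeq2 21 and the fit with 12 groups 20. Without homozygote Rep1 edgeR passed 19, the exceptions being Spp1 and Ndufb2. Itgav, the integrin subunit alpha V, was at 236, 228 and 217 CPM in the 3 heterozygote libraries and 161, 175, 165, 161 and 158 CPM in the 5 homozygote libraries (log2 fold change -0.47 ± 0.06, adjusted p = 0.0506, edgeR), one of the 4 genes with the smallest adjusted p. Itga6, a laminin-binding integrin subunit, differed by -0.51 ± 0.08. Tmx3, an oxidoreductase of the endoplasmic reticulum, differed by -0.43 ± 0.05 and Edem3, which trims misfolded glycoproteins there, by -0.48 ± 0.07. Slc4a7, a bicarbonate transporter, differed by -0.49 ± 0.06 and Dpy19l4 by -0.50 ± 0.06. All 6 were lower in every homozygote than in any heterozygote. With both trends removed their estimates ran from -0.47 for Itga6 to -0.17 for Tmx3, still negative.

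Bmpr2, a type II receptor for bone morphogenetic proteins, was at 235, 227 and 215 CPM in the 3 heterozygote libraries and 167, 166, 162, 140.3 and 157 CPM in the 5 homozygote libraries (log2 fold change -0.51 ± 0.07, adjusted p = 0.0518, edgeR), and it passed without homozygote Rep1 (-0.53 ± 0.07, adjusted p = 0.0345). Acvr2a, the activin type II receptor, differed by -0.43 ± 0.07 and Tgfbr1, a type I receptor, by -0.41 ± 0.08. Both also passed without that library (adjusted p = 0.0353 and 0.0382, edgeR). All 3 were lower in every homozygote, and with both trends removed they were at -0.20, -0.18 and -0.18.

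H1f10, a linker histone whose transcript has a GC content of 71.3%, was at 58.2, 45.2 and 70.1 CPM in the 3 heterozygote libraries and 90.9, 118, 119, 132 and 115 CPM in the 5 homozygote libraries (log2 fold change 0.99 ± 0.15, adjusted p = 0.0518, edgeR), and it passed without homozygote Rep1 (1.07 ± 0.13, adjusted p = 0.0345). Its estimate was 0.23 ± 0.06 with both trends removed, and XY wild type, at 86.5, 101 and 91.1 CPM, was above all heterozygotes. Taf10, a subunit of the TFIID and SAGA complexes, differed by 0.50 ± 0.09, and Sox12, a SoxC transcription factor, by 0.35 ± 0.08. Without homozygote Rep1 they passed at adjusted p of 0.0345 and 0.0382 (edgeR).

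Nicol1, a small secreted protein, had a similar estimate with and without the length trend. It was at 8.58, 8.26 and 7.996 CPM in the 3 heterozygote libraries and 11.4, 18.8, 15.4, 17.3 and 16.4 CPM in the 5 homozygote libraries (log2 fold change 0.94 ± 0.15, adjusted p = 0.0518, edgeR), with no overlap, and differed by 0.86 ± 0.12 with the length trend removed (adjusted p = 0.0642). It has no GC value, so the GC trend could not be removed for it. Without homozygote Rep1 it passed at 1.04 ± 0.10 (adjusted p = 0.0159). Spp1, the secreted phosphoprotein osteopontin, likewise differed by -0.47 ± 0.10 and, with both trends removed, by -0.42 ± 0.07 (adjusted p = 0.105).

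Genes of energy metabolism and translation, whose transcripts are short (median relative length 0.213 and 0.203 against 0.959 over all genes), had median fold changes slightly above 0. Of 85 tested cytoplasmic ribosomal protein genes 58 estimates were positive and 27 negative (median 0.07), and of 104 nuclear genes of oxidative phosphorylation 64 were positive and 40 negative (median 0.06). None passed in edgeR over all 8 libraries. Without homozygote Rep1 edgeR passed 2 of the ribosomal protein genes and 3 of the oxidative phosphorylation genes as higher, beside 0.574% of all genes. Over all 8 libraries DESeq2 passed 3 and 6 as higher, beside 2.28% of all genes. Rpl27, a large-subunit protein, was at 186, 229.7 and 157 CPM in the 3 heterozygote libraries and 208, 309.6, 268, 322 and 299 CPM in the 5 homozygote libraries (log2 fold change 0.56 ± 0.16, adjusted p = 0.121, edgeR), and without homozygote Rep1 it passed at 0.66 ± 0.12 (adjusted p = 0.0434, and 0.0471 with the length trend removed). Ndufb2, a complex I subunit, differed by 0.37 ± 0.10 without overlap. With both trends removed the list medians were -0.01 and 0.02.

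Processed pseudogenes, intronless copies of expressed genes, were among the genes with large differences. Their reads are shared with the parent gene and with other copies, so their counts depend on how the authors' counting split them and are uncertain. Rps12-ps3 was at 169.5, 167 and 160.1 CPM in the 3 heterozygote libraries and 66.0, 80.5, 86.1, 101 and 102 CPM in the 5 homozygote libraries (log2 fold change -0.93 ± 0.13, adjusted p = 0.0518, edgeR), and every homozygote was far below every heterozygote. Rps13-ps2 differed by -1.09 ± 0.19 and Actg-ps1 by -1.62 ± 0.27, both lower. Rps19-ps6 differed by 1.19 ± 0.23 and Rps27a-ps3 by 0.76 ± 0.20, both higher. All 5 passed without homozygote Rep1, with adjusted p from 0.0201 for Rps12-ps3 to 0.0416 for Actg-ps1 (edgeR). Removal of both trends left these 5 at -1.01, -1.18, -1.77, 1.05 and 0.78. Over all 134 pseudogenes tested, 6 were higher and 16 lower without overlap, beside the shares of 6.05% and 8.26% over all genes. DESeq2 passed 5 of them higher and 11 lower, beside 2.28% and 3.08% of all genes. Without homozygote Rep1 edgeR passed 3 higher and 6 lower, beside 0.574% and 0.886% of all genes.

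Among mitochondrial transcripts ATP6 differed most, while the groups overlapped for its neighbour COX3. ATP6, a subunit of ATP synthase encoded in mitochondrial DNA, was at 1468, 1517 and 1150.1 CPM in the 3 heterozygote libraries and 471, 564, 328, 499.9 and 859.6 CPM in the 5 homozygote libraries (log2 fold change -1.34 ± 0.27, adjusted p = 0.0818 in edgeR and 0.00195 in DESeq2), with every homozygote below every heterozygote. COX3, which is encoded next to it and cut from the same precursor, differed by 0.15 ± 0.17 and overlapped. The ratio of ATP6 to COX3 CPM was 0.661, 0.597 and 0.639 in the heterozygotes and 0.259, 0.236, 0.148, 0.182 and 0.291 in the homozygotes. The ratio was formed after ATP6 was seen to differ, so it is given as a description with no test. Of the 13 mitochondrial protein genes, 2 were lower without overlap, ATP6 and ND3 (-0.42 ± 0.14), beside 8.26% of all genes. COX1 differed by 0.03 ± 0.42.

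The same ratio varied across the rest of the study. It was 0.589 to 0.809 in XY wild type and 0.655 to 0.859 in XY 1bp-ins heterozygotes, near the 3bp-del heterozygotes. In XY 1bp-ins homozygotes it ran from 0.271 to 0.619, in XX 3bp-del heterozygotes from 0.510 to 0.572 and in XX 3bp-del homozygotes from 0.251 to 0.327, while XX wild type lay at 0.433 to 0.516. In 2 further groups, labelled 3bp-12bp-del-hom, it was 0.833 to 1.05 in XY, above all 3 XY wild types and all 3 XY 3bp-del heterozygotes, and 0.497 to 0.810 in XX. The ranges of XY 3bp-del, XX 3bp-del and XY 1bp-ins homozygotes overlapped, and the 3 lowest of the 46 libraries were XY 3bp-del homozygotes. Adjacent mitochondrial genes share a precursor, and how the authors' counting divided its reads is not given in the sources used here.

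**Figure D5:**
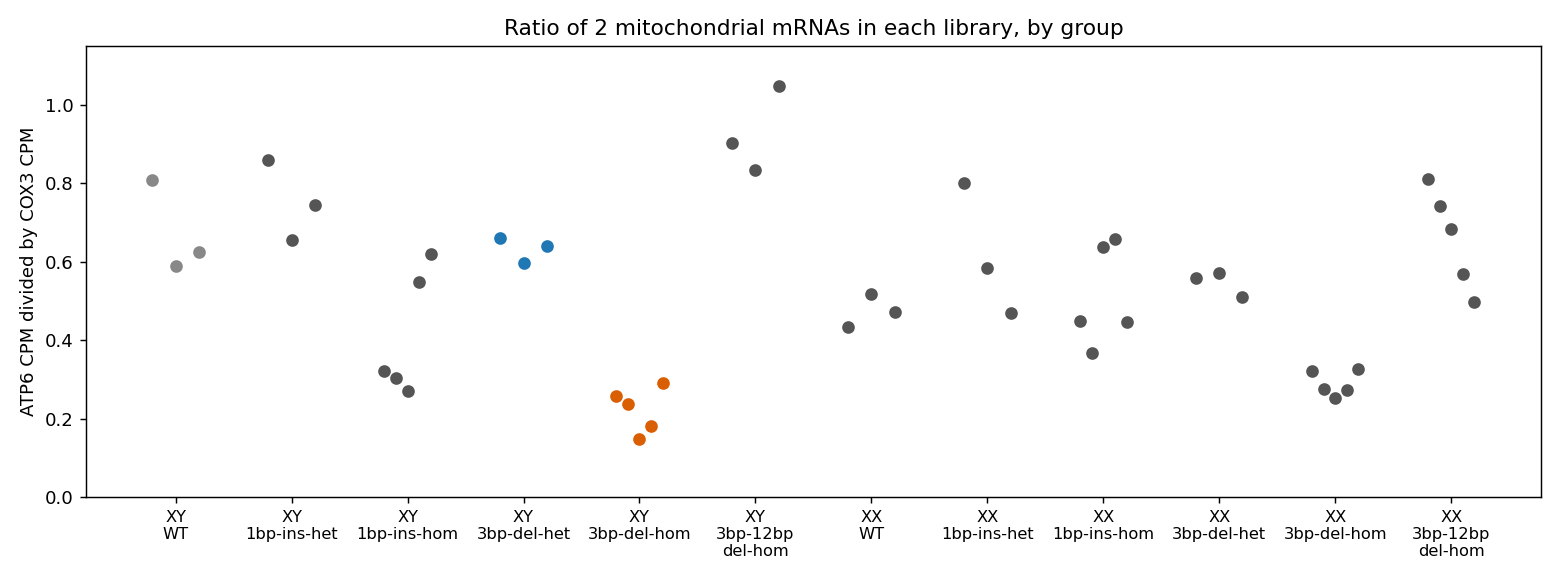
ATP6 CPM divided by COX3 CPM in each library (points) of the 12 groups of XY and XX embryos. XY 3bp-del homozygotes lie between 0.148 and 0.291 and XY 3bp-del heterozygotes between 0.597 and 0.661, with XY wild type at 0.589 to 0.809 and XY 3bp-12bp-del homozygotes at 0.833 to 1.05.

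Against the other Enh13 allele in XY embryos, no gene passed a test of the difference between the 2 mutations. The difference between the homozygote effects of 3bp-del and 1bp-ins was tested in 16058 genes over 16 libraries, and edgeR passed none (0%), with 1744 at an unadjusted p under 0.05 (10.9%) and a smallest adjusted p of 0.422. DESeq2 passed 8 higher (0.0356%) and 22 lower (0.0978%). The 1bp-ins comparison on its own, which shares no library with the 3bp-del one, passed 773 genes higher in homozygotes (4.96%) and 1185 lower (7.60%).

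Sox9 differed by 0.10 ± 0.09 in 1bp-ins (adjusted p = 0.519, edgeR) beside 0.21 ± 0.12 in 3bp-del. Kitl, just short of the threshold in 3bp-del, fell by 0.41 on the log2 scale in 1bp-ins homozygotes (adjusted p = 0.0193), and the difference between the alleles was -0.05 ± 0.12. BC006965 differed by 0.73 ± 0.18 (adjusted p = 0.0227) beside 0.57 ± 0.18. Of the 229 genes passed without homozygote Rep1, 217 (94.8%) had the same sign in 1bp-ins, where 67.3% of all genes did. The 1bp-ins fold changes followed length more steeply (rho -0.55) and GC less (0.12); how far the shared signs follow the length trend was not tested.

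In XX embryos the same step from 1 to 2 copies changed Sox9 and many other genes, and the difference from XY passed for many of them. XX 3bp-del heterozygotes held Sox9 at 11.2 to 14.4 CPM and XX homozygotes at 149 to 209 CPM, against 174 to 226 CPM in XY homozygotes. In XX, 2232 of 15979 genes rose (14.0%) and 2094 fell (13.1%), Sertoli genes among them (21 rose). The difference of the 2 effects, XY minus XX, passed in 654 of 16406 genes (3.99%), 239 higher (1.46%) and 415 lower (2.53%), and in 395 without XX heterozygote Rep1. Of the Sertoli list 16 genes were passed as lower in that difference and none higher, and of the pregranulosa list 8 higher and none lower.

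For Sox9 the difference in effect was -3.62 ± 0.18 on the log2 scale (adjusted p = 2.25e-08, edgeR), the XX effect being 3.85 ± 0.13. Amh had one of the largest differences, -5.50 ± 0.91 (adjusted p = 0.00372), against an XX level of 0.452 to 0.849 CPM in heterozygotes and 21.2 to 86.5 CPM in homozygotes. BC006965 differed by -5.23 ± 0.56 (adjusted p = 4.28e-05). Dhh differed by -4.38 ± 0.43 (adjusted p = 3.91e-05). The chemokine gene Ccl17, at 0.881 to 1.25 CPM in XY heterozygotes and 0.336 to 0.925 in XY homozygotes, differed by -4.95 ± 0.80. The phosphate transporter gene Slc34a2, at 5.32 to 6.66 and 4.08 to 7.23 CPM in the same groups, differed by -4.87 ± 0.57. In XX these 2 and BC006965 lay at 0 to 0.113 CPM in heterozygotes and at 0.134 to 5.81 CPM in homozygotes, so the fitted sizes of these 3 differences rest on few counts and on the prior count.

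Kitl was also lower in XX homozygotes. Its XX level was 865 ± 84.8 CPM in heterozygotes (SD, n = 3) and 379 ± 57.9 CPM in homozygotes (SD, n = 5), a fall of 1.16 on the log2 scale (adjusted p = 2.62e-04, edgeR). The XY effect was smaller, with a difference of 0.71 ± 0.15 (adjusted p = 0.0135). Among 15422 genes tested in both sexes, 301 of the 933 higher without overlap in XY homozygotes (32.3%) were also higher without overlap in XX, where 13.5% of all these genes were. Of the 1288 lower in XY, 613 (47.6%) were also lower in XX, where 17.1% of all were. In XX the fold changes had a rho of -0.28 with length and 0.16 with GC content.

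Rhox4a, an X-linked homeobox gene with near-identical copies whose counts are therefore uncertain, was at 0 in all 3 XY heterozygotes and at 0.925, 1.02, 0.441, 1.68 and 0.593 CPM in the XY homozygotes. XY wild type held 0.204, 0.879 and 0 CPM. Between XY homozygotes and heterozygotes its adjusted p was 0.0518 and, without homozygote Rep1, 0.0421 (edgeR). The difference between the sexes passed (adjusted p = 0.0141, edgeR), but with a group at 0 its fitted size depends on the prior count.

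Neither carrier group differed from XY wild type at the threshold. Both comparisons use the same 3 wild-type libraries, so their values are set side by side only. Heterozygotes against wild type passed 0 of 15261 genes in edgeR (0%, 740 or 4.85% at an unadjusted p under 0.05), and homozygotes against wild type 0 of 15812 (0%, 1722 or 10.9%). DESeq2 was not run for these 2 comparisons. Sox9 differed from wild type by 0.38 ± 0.25 in heterozygotes and 0.59 ± 0.20 in homozygotes, BC006965 by 1.02 ± 0.39 and 1.59 ± 0.32, and Kitl by 0.39 ± 0.23 and -0.08 ± 0.19. Without wild-type Rep3 the differences were 0.14 ± 0.13 and 0.34 ± 0.10 for Sox9, 0.71 ± 0.24 and 1.27 ± 0.20 for BC006965, and 0.17 ± 0.13 and -0.31 ± 0.11 for Kitl, and none of the 6 passed. Without wild-type Rep3 the first comparison passed 3 genes, and without homozygote Rep1 the second passed 3.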

How the data were processed

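Poly(A) RNA of whole gonad pairs was extracted with Qiagen's RNeasy Plus micro system, and libraries were made from 140 ng of total RNA with NEB's poly(A) module and the NEBNext UltraExpress kit, per the labels' protocols. The genome was mm10 according to the submitters' processing notes, while aligner, quantifier, annotation and strand handling are not given in the sources at hand. The authors deposited estimated counts by gene symbol, rounded here before modelling, and TPM values in a separate deposited table. One column of each table (1 library) matched no labelled sample and was not used here.

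Genes kept by filterByExpr were tested with edgeR 4.0.16 (robust quasi-likelihood F test, TMM) in R 4.3.3 on the libraries of each comparison, and passed at a Benjamini-Hochberg adjusted p under 0.05 over all genes tested. SE is the size of the log2 fold change over the root of its F statistic. CPM values were scaled by TMM over all 46 libraries. Relative length is counts divided by TPM, and GC content is that of the longest GENCODE transcript (97.3% of genes tested had one). Trends were removed by gene-by-library offsets from a lowess with a span of 0.3. The edgeR fit was tried on simulated counts with no trend removed and with the length trend removed. The removal of GC, alone or with length, was not tried on simulated counts, nor were DESeq2 and limma. Alternatives were DESeq2 1.42.0, limma 3.58.1 on log2(TPM + 1) or log2(TPM + 0.1), RLE scaling, no filter, 1 fit over 12 groups, autosomal genes, replicate blocks and fits without each library in turn. Per list up to 4 genes that passed and 2 with the highest mean level that did not were named, with Sox9 and BC006965 always and up to 12 genes in each direction passed with and without the length trend and without overlap between the groups, and the 5 largest differences between comparisons; other named genes were chosen after their values were seen. The members and lists were chosen with earlier results of these data known. Some listed genes are not reported here. No enhancer or promoter sequence is printed.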

Additional observations from a re-analysis of the deposited data

Results flagged for a closer look

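Among 124 levels and sums checked in the 5 homozygotes, 19 had 1 library far outside the other 4 by Dixon's criterion, and homozygote Rep1 was that library in 16. For independent values chosen beforehand the criterion flags about 1 in 20 by chance. Here the visceral endoderm and epithelial barrier lists and some genes were chosen after their values were seen. Several single genes are also members of the sums. The counts of flags are therefore a description and cannot be set against that rate. In homozygote Rep1 the sums of the visceral endoderm (4730 CPM), epithelial barrier (862 CPM), stroma (7415 CPM), surface epithelium (952 CPM), mesonephros (104 CPM), immediate early (422 CPM) and cholesterol synthesis (1566 CPM) lists were high. So were Col1a1 (3987 CPM), the mesothelial gene Upk3b (211 CPM), the keratin genes Krt8 (354 CPM) and Krt7 (79.4 CPM), Tgfbr1 (219.7 CPM), Atp13a3 (74.3 CPM) and Stt3a (297 CPM), the last encoding the catalytic subunit of an oligosaccharyltransferase. Sox10 (39.3 CPM) and Rps27a-ps3 (24.4 CPM) were low there. The other 3 were the Sertoli (3606 CPM) and Leydig (652 CPM) sums of homozygote Rep3 and the cell cycle sum of homozygote Rep2 (4086 CPM).

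Genes whose homozygote effect differed between XY and XX by the test of that difference, XY minus XX on the log2 scale, included Sox9 (-3.62), BC006965 (-5.23), Amh (-5.50), Dhh (-4.38), Sox8 (-3.13), Sox10 (-4.28), Fgf9 (-2.95), Aard (-2.65), Lefty2 (-2.76), Lefty1 (-1.82), Gli1 (-1.26), Spp1 (-2.07), Ccl17 (-4.95) and Slc34a2 (-4.87), all with the more positive effect in XX. The opposite sign was found for Kitl (0.71), Wnt4 (1.16), Foxl2 (1.44) and Rhox4a (8.20), where the XY heterozygotes were all at 0.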

How the results depend on the processing

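The count of genes passed between homozygotes and heterozygotes was 0 under RLE scaling, no expression filter, autosomal genes, GC removal, and GC and length removal. It was 1163 by DESeq2, 1469 with 12 groups in 1 fit, 1 with the length trend removed, 16 with limma on log2(TPM + 1) and 8 on log2(TPM + 0.1). Leaving out 1 library at a time it ran from 0 to 229 (0 to 86 with GC and length removed), and the count with the length trend removed, 1 over all 8 libraries, ran from 0 to 222 and was 0 without length removal. The difference between the alleles passed 0 genes, 30 by DESeq2, and 0 to 0 without each library. The difference between the sexes passed 654, 1172 by DESeq2, and 395 to 801 without each library. Both comparisons with wild type ran from 0 to 3. The rho with length ran from -0.41 to -0.18, the rho with GC from 0.39 to 0.51, the length slope difference from -0.32 to -0.15 and the GC slope difference from 0.159 to 0.230. With 7 libraries the exact test of the GC slope could not pass, its p being 0.0571 or 0.0952. The cause of these shifts was not tested. Homozygotes and heterozygotes differed in depth, and weakly expressed genes are limited by it.

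Same-numbered heterozygotes and homozygotes correlated at -0.07, -0.0043 and 0.16, and differently numbered ones at -0.22 to 0.21. With so few same-numbered pairs inside that range, these values cannot show whether replicate numbers pair the samples. With the numbers as a replicate block 0 genes passed, 0 with the length trend also removed, and 1 for the difference between the alleles. Of 92 named genes, 6 had an estimate of the other sign that exceeded its SE on either side. These were Nr5a1 with GC (-0.16) or GC and length removed (-0.13), Gata4 by limma (-0.0871 and -0.0874 with a pseudocount of 1 and 0.1) and with the same removals (-0.11 and -0.11), Fdxr (-0.0141 and -0.0378) and Cdc42ep4 (-0.043 and -0.0212) with the same removals, Ptch1 with the block and length removal (0.0317) and Krt8 without homozygote Rep1 (-0.0783, in a range up to 1.25 over the libraries left out).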

Other observations

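Fetal Leydig genes varied between libraries more than between the groups. Cyp17a1, a steroidogenic enzyme, was at 0.514, 1.96 and 12.2 CPM in the 3 heterozygote libraries and 4.06, 1.14, 23.0, 1.42 and 1.28 CPM in the 5 homozygote libraries. Heterozygote Rep3 and homozygote Rep3 were the highest of their groups for it, as they were for Insl3, a Leydig hormone, at 3.56 and 6.93 CPM, and for Hsd3b1, at 29.0 and 35.6 CPM. None of the 12 genes of the list passed in edgeR (median log2 fold change 0.09). Macrophage genes were split as well: Csf1r, the receptor that marks them, was at 10.8, 7.38 and 14.8 CPM in the 3 heterozygote libraries and 22.0, 19.6, 16.2, 7.31 and 6.55 CPM in the 5 homozygote libraries, and Mrc1, a scavenger receptor of tissue macrophages, at 14.9, 12.7 and 10.3 CPM in the 3 heterozygote libraries and 7.57, 11.4, 8.85, 7.07 and 6.69 CPM in the 5 homozygote libraries (log2 fold change -0.60 ± 0.19, adjusted p = 0.139, edgeR).

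Embryonic globin from blood in the gonad differed between libraries without following genotype, with Hbb-y at 2417, 3391 and 1831 CPM in the 3 heterozygote libraries and 2286, 3826, 2684, 4592 and 2167 CPM in the 5 homozygote libraries. Hhip, a Hedgehog target, was at 7.23 CPM in heterozygote Rep1 and at 60.8 and 87.5 CPM in the other heterozygotes, against 25.0 to 77.1 CPM in the homozygotes.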
